A study of Mus musculus with 2 samples.

Results

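Early lymphoid priming was followed through 10 genes, Dntt, Rag1, Rag2, Il7r, Notch1, Il12a, Ikzf1, Satb1, Ly6d and Tmem108, out of 27998 genes listed for both libraries. They were taken by symbol, and all 10 were found. The cells were LSK cells (Lin- Sca-1+ c-Kit+), which comprise the haematopoietic stem cells and early multipotent progenitors of bone marrow, from 3-month-old mice. The study asked how these cells change when Trmt6, a gene needed for m1A methylation of tRNA, is lost. There was 1 library labelled Trmt6 WT, with genotype Trmt6fl/fl, and 1 labelled Trmt6 cKO, with genotype Trmt6fl/fl, MX1-cre. The study's own text instead gives Mx1-Cre to both genotypes and pIpC to the mice. It writes the control genotype as Trmt6 +/+, while the mice bred in its methods are Trmt6fl/+ and Trmt6fl/fl, each with Mx1-Cre. Mx1-Cre is driven by an interferon-inducible promoter and is therefore not limited to blood cells. The number of mice behind each library is not given in the sources used here. With 1 library per genotype, genotype and library cannot be told apart, no difference has a replicate check and no test was possible. All intervals are 95% intervals and cover counting error only.

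Lymphoid priming is the early, low-level use of lymphoid genes by multipotent progenitors that still carry the LSK surface markers. It is best known in Flt3-high lymphoid-primed multipotent progenitors (LMPPs), which go on to common lymphoid progenitors and then to B, T and innate lymphoid cells. Dntt encodes terminal deoxynucleotidyl transferase, which adds untemplated nucleotides at V(D)J junctions, and Rag1 and Rag2 encode the recombinase that cuts them. Il7r encodes the alpha chain of the interleukin 7 receptor. Notch1 encodes the receptor that directs progenitors to the T lineage, and Il12a encodes the p35 subunit of interleukin 12. Ikzf1 (Ikaros) and Satb1 encode a transcription factor and a chromatin organiser needed for lymphoid differentiation. Ly6d encodes a surface protein that marks B-biased common lymphoid progenitors, and Tmem108 encodes a membrane protein.

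The promoters of 3 members that were lower in cKO (Dntt, Satb1 and Il12a) and of the member with the highest ratio (Rag1) are shown, so that these differences can be read beside the sequence around each start. Each window has 300 bases from RefSeq on GRCm38.p6, written 5′ to 3′ on the strand of the gene, and where several starts were listed the outermost was taken. Capitals mark an E-box (CAGGTG, reverse CACCTG), the Ikaros core (GGGAA, reverse TTCCC) or a Runx core (TGTGGT, reverse ACCACA), each searched on both strands. No matches overlapped in these windows.
Dntt (chr19:41029025-41029324, plus strand): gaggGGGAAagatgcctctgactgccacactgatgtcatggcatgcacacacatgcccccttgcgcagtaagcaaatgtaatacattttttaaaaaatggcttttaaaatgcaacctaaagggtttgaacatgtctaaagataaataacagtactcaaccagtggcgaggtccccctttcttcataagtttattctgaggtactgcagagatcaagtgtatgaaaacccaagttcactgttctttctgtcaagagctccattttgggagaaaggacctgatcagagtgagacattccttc
Satb1 (chr17:51833241-51833540, minus strand): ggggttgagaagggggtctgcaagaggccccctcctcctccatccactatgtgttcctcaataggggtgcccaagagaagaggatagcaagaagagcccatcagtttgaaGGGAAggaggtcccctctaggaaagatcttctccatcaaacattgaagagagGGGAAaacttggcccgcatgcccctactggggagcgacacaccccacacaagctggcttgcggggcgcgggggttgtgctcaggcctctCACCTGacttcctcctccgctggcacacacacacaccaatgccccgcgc
Il12a (chr3:68690394-68690693, plus strand): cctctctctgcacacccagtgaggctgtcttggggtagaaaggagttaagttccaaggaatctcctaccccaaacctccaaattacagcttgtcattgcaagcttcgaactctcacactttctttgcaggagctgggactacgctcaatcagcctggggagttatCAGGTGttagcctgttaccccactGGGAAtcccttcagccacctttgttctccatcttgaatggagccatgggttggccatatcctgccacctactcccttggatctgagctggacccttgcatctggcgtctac
Rag1 (chr2:101649483-101649782, minus strand): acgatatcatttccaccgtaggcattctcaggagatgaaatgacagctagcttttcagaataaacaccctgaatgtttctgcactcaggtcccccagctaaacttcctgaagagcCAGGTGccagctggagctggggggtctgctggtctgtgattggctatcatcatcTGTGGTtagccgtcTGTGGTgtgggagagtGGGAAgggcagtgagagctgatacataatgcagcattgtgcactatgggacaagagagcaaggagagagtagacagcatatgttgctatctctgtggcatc
The Ikaros core was found in 1 place in the Dntt window, 2 in Satb1, 1 in Il12a and 1 in Rag1, and it was found in 62.7% of all 32851 windows of this length. The E-box was found in the Satb1, Il12a and Rag1 windows and in 20.2% of all windows, and it was not found in the Dntt window. The Runx core was found in 2 places in the Rag1 window, in none of the other 3 shown, and in 16.8% of all windows. RefSeq windows were matched for 9 of the 10 members, the exception being Ly6d. Of those 9, 6 held an Ikaros core, 3 an E-box and 2 a Runx core. These matches describe letters in the windows and were not tested for binding.

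The WT library held 8869 cell barcodes and 47991455 unique molecular identifiers (UMIs), and the cKO library 9260 barcodes and 98323201 UMIs. After filtering, 8148 WT and 8480 cKO cells were kept, with medians of 4146 and 10066 UMIs per cell, so a cKO cell was 2.43 times as deep. Shares of cells were therefore compared after each cell had been thinned at random to 2000 UMIs, and 203 WT and 105 cKO cells with fewer UMIs were set aside. Among all 18129 barcodes, 24 occurred in both libraries. Trmt6 itself was at 63.3 CPM (the UMIs of a gene scaled to the total of its library) in WT and 50.3 CPM in cKO, with a log2 ratio of -0.33 (-0.40 to -0.26), but 3′ counting need not show the loss of a floxed segment. Kit, the transcript of the c-Kit sort marker, was at 63.6 CPM in WT against 21.4 CPM in cKO, and Ly6a, the transcript of Sca-1, was at 34.4 and 142 CPM. Cd3e, a T cell gene, was at 0 UMIs in WT and 15 UMIs in cKO. The part of these differences in the composition of the sorted cells was not tested.

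Across all kept cells, the members were on the whole lower in the cKO library, and 2 stood out in the opposite direction. Their UMIs summed to 400 CPM in WT and 170 CPM in cKO. Satb1 and Dntt showed the largest reductions, Notch1, Il12a and Il7r were about 1 log2 unit lower, and Rag1 and Ly6d were higher. Of the 10 members, 5 had a log2 ratio (cKO over WT) of -1 or lower, while 5.24% of the 9140 genes that reached 5 CPM in either library did so. Among the 7 members that reached 5 CPM, 4 were at -1 or lower. Rag1 was the 1 member at 1 or higher, against 2.91% of all genes, and it lay under 5 CPM in both libraries. The median log2 ratio was -0.79 over the 10 members, including those under 5 CPM, and -0.07 over the 9140 genes, which all reached 5 CPM. Of the 5 lower members, Dntt and Satb1 stayed past -1 under every other scaling, whereas Notch1 and Il12a came to between -0.95 and -0.98 with the TMM (trimmed mean of M values) factor, with median-of-ratios size factors or without mitochondrial and ribosomal protein genes, and Il7r came to lie at the threshold. The median-of-ratios scaling moved the median of all genes by 0.10.

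**Figure D1:**
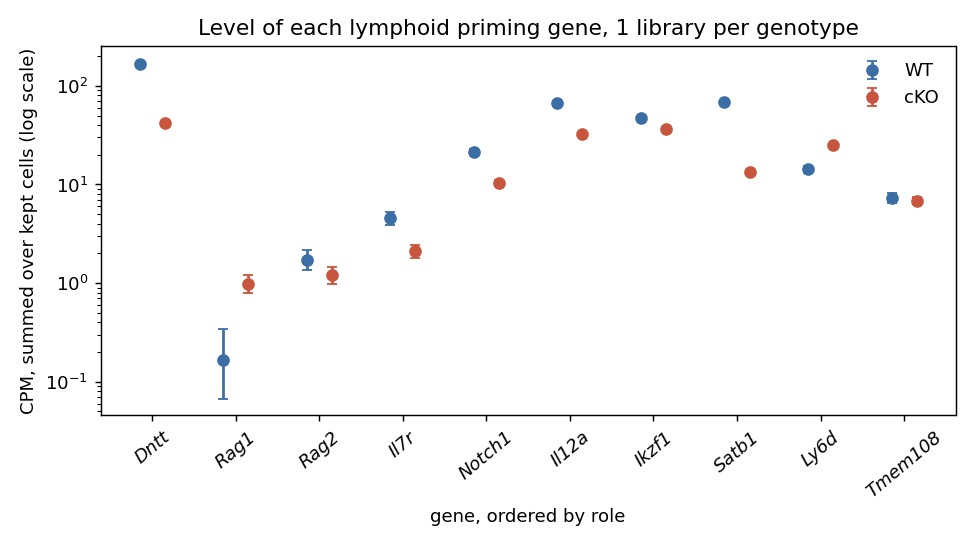
CPM of each member (log axis) in the WT (blue) and cKO (red) libraries, with UMIs summed over 8148 and 8480 kept cells and bars for exact 95% Poisson intervals. Dntt (168 and 41.5 CPM) and Satb1 (68.9 and 13.4 CPM) lie far apart, Tmem108 intervals overlap, and Rag1 and Ly6d are the 2 members with the red point above the blue.

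Among the recombination genes, Dntt carried most of the difference. The WT library had 168 CPM of Dntt (164 to 171) and the cKO library 41.5 CPM (40.2 to 42.9), so that Dntt was 4.04-fold higher in WT, with a log2 ratio of -2.01 (-2.07 to -1.95). It supplied 41.9% of all member UMIs in WT and 24.4% in cKO. Thinned to 2000 UMIs, 15.7% of WT cells (1250 of 7945, interval 14.9 to 16.6) and 3.88% of cKO cells (325 of 8375, 3.48 to 4.32) held a Dntt UMI. Without thinning the shares were 21.5% and 7.61%. At 2000 UMIs the cells that held Dntt did not hold less of it in cKO. The mean was 2.48 Dntt UMIs per positive thinned cell in WT and 2.71 in cKO, and 48.2% and 40.9% of the positive cells had a single UMI. The means were 1.78 and 1.76 at 1000 UMIs, and 3.69 and 3.91 at 4000 UMIs. Cells with 5 or more Dntt UMIs made up 2.27% of WT and 0.657% of cKO cells.

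The recombinase genes were near the limit of detection. Rag1 had 7 UMIs in WT and 86 in cKO, or 0.167 CPM (0.0673 to 0.345) and 0.984 CPM (0.787 to 1.21), which gave a log2 ratio of 2.46 (1.45 to 3.91). After thinning, 2 of 7945 WT cells and 19 of 8375 cKO cells had a Rag1 UMI. Rag2 did not follow Rag1. WT had 72 Rag2 UMIs (1.72 CPM) and cKO 105 (1.20 CPM), giving a log2 ratio of -0.52 (-0.97 to -0.07), with overlapping shares of 0.315% (0.204 to 0.464) and 0.239% (0.146 to 0.369). Rag1 and Rag2 lie side by side on chromosome 2 (101638282 to 101649501 and 101624718 to 101632529 on GRCm38), on opposite strands.

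The receptors were both lower in the summed counts, on different evidence. Notch1 stood at 21.5 CPM (20.1 to 22.9) in WT against 10.3 CPM (9.63 to 11) in cKO, the log2 ratio being -1.06 (-1.20 to -0.93), and was found in 4.24% and 2.39% of thinned cells. Without thinning the Notch1 shares were 9.70% and 9.56%, a difference of -0.13 percentage points (-1.03 to 0.77). WT had 189 Il7r UMIs (4.52 CPM) and cKO 184 (2.10 CPM), giving a log2 ratio of -1.10 (-1.40 to -0.80). The Il7r share of thinned cells was 0.705% (0.533 to 0.914) in WT and 0.537% (0.392 to 0.718) in cKO, with overlapping intervals. It moved with the random draw and the depth of thinning, and the depth also changed which cells were used. At 4000 UMIs 4279 WT and 8159 cKO cells remained, and at 1000 UMIs 8130 and 8472. A second draw at 2000 UMIs gave 0.768% (0.588 to 0.985) and 0.394% (0.271 to 0.553), 4000 UMIs gave 1.68% and 0.576%, and at 1000 UMIs cKO was the higher, with 0.455% and 0.567%. The Il7r ratio of levels turned to 0.52 when each cell was scaled to its own total before averaging. In cKO, 42 of the 184 Il7r UMIs (22.8%) came from the 105 cells under 2000 UMIs, compared with 2 of 189 (1.06%) in the 203 such WT cells.

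Il12a, the single cytokine gene, stood at 66.9 CPM (64.5 to 69.5) in WT against 32.3 CPM (31.1 to 33.5) in cKO, the log2 ratio being -1.05 (-1.13 to -0.97). It was found in 12.2% of WT and 5.36% of cKO thinned cells, and in 23.2% and 21.3% of unthinned cells. The gap was much smaller before thinning, where cKO cells were deeper.

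The chromatin organiser Satb1 showed the largest reduction of all members. The WT library had 68.9 CPM of Satb1 (66.4 to 71.5) and the cKO library 13.4 CPM (12.6 to 14.1), 5.16-fold less, with a log2 ratio of -2.37 (-2.47 to -2.27). Its share of thinned cells was 13.3% (12.5 to 14.0) and 2.72% (2.38 to 3.09). Ikzf1 differed far less. Its level was 47.0 CPM (44.9 to 49.1) in WT against 36.4 CPM (35.2 to 37.7) in cKO, the log2 ratio being -0.37 (-0.45 to -0.28), with shares of 9.35% and 7.21% after thinning. Without thinning the Ikzf1 shares were in the other order, 20.5% in WT and 30.2% in cKO.

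The surface genes parted from the rest. Ly6d was higher in cKO, with 14.3 CPM (13.2 to 15.5) in WT against 25.1 CPM (24.0 to 26.1), the log2 ratio being 0.80 (0.67 to 0.94). Its share of thinned cells was 0.843% (0.654 to 1.07) in WT and 2.01% (1.72 to 2.33) in cKO, and a positive cell held on average 3.66 and 4.23 UMIs, the highest of the members in each library. Tmem108 had overlapping levels of 7.34 CPM (6.54 to 8.21) in WT and 6.83 CPM (6.29 to 7.40) in cKO, with a log2 ratio of -0.11 (-0.31 to 0.10), and its shares were 1.33% and 1.28%, or 2.72% and 3.94% without thinning.

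**Figure D2:**
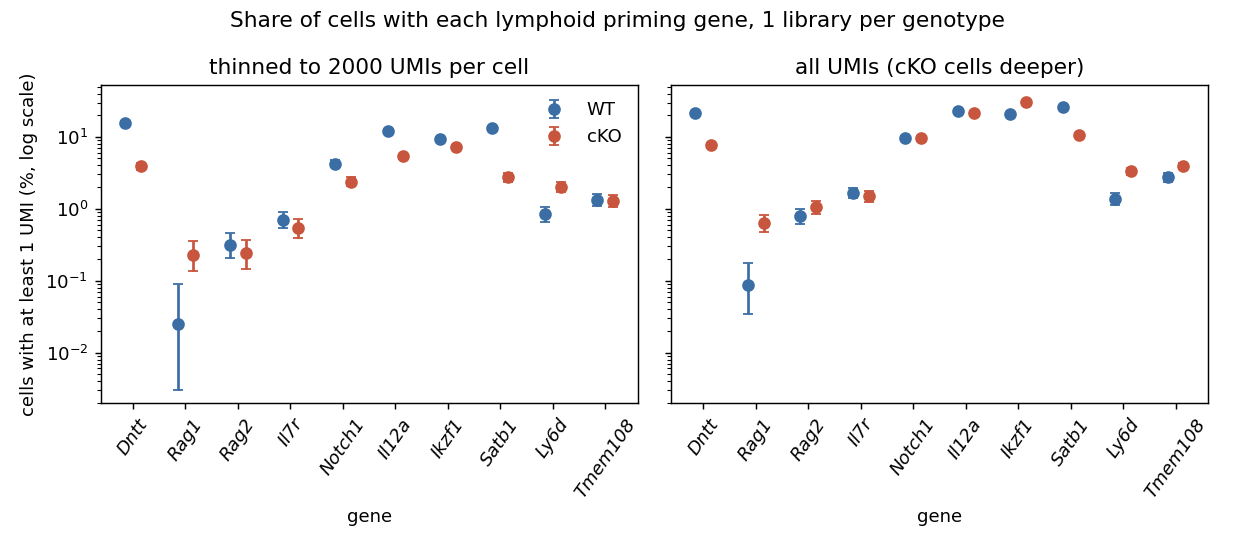
Share of cells with at least 1 UMI of each member (log axis) in WT (blue) and cKO (red), in cells thinned to 2000 UMIs (left) and in all kept cells with all UMIs (right), with exact 95% binomial intervals. Ikzf1 is higher in WT on the left (9.35% and 7.21%) and higher in cKO on the right (20.5% and 30.2%), while Dntt and Satb1 are higher in WT on both sides.

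Shares were also read in cells that should lack lymphoid genes. In WT, 123 thinned cells held at least 3 platelet genes (from a list with Pf4, Gp9 and Itga2b), with a median of 4670 UMIs before thinning compared with 4228 in all thinned WT cells. Of those 123 cells, 2.44% (0.506 to 6.96) had Dntt and 0.813% had Satb1, under the shares over all WT cells. Il12a was found in 12.2% (6.99 to 19.3) of the same 123 cells, the same share as over all WT cells. In the 617 WT cells rich in azurophil granule genes such as Mpo and Elane, with a median of 11451 UMIs, 4.05% (2.64 to 5.92) had Il12a and 1.78% (0.893 to 3.17) had Dntt. The sets of cells that should lack lymphoid genes thus gave different Il12a shares, 1 at the level of all WT cells and 1 below it. For Il7r, Rag1, Ly6d and Tmem108 the 123 platelet gene cells had 0 UMIs, and in cKO the 14 such cells had 0 UMIs of all 10 members. A count of 0 in 14 cells allows a share of up to 21.4% by the limit of 3 counts. With at least 2 platelet genes, Il12a was found in 10.7% (7.75 to 14.4) of 363 WT cells and in 0 of 91 in cKO, where the same limit is 3.30%.

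Members were found together in the same cell more often than separate detection would give. For each pair, the thinned cells with both genes were divided by the number expected from the 2 shares if detection were independent within the library. Of 45 pairs, 22 in WT and 15 in cKO had an expected number of 5 or more. The ratio's interval lay above 1 for 18 of the 22 in WT and 11 of the 15 in cKO, and below 1 for 0 in each. Over all pairs of genes that reached 5 CPM, 1.75% of those with an expected number of 5 or more in WT and 1.45% in cKO had intervals above 1. Where the expected number was also no higher than the highest among the member pairs, these shares were 1.77% and 1.63%. Dntt and Satb1 shared 365 WT cells where 166 were expected (ratio 2.20, 1.98 to 2.44) and 51 cKO cells where 8.85 were expected (5.76, 4.29 to 7.58). Dntt and Ly6d shared 37 WT cells (3.51, 2.47 to 4.84) and 97 cKO cells (14.9, 12.1 to 18.2). The cKO library thus held 97 Dntt and Ly6d cells out of only 325 Dntt cells. Dntt and Tmem108 gave ratios of 3.78 (2.90 to 4.83) in WT and 16.4 (12.7 to 20.8) in cKO, where the expected number was 4.15 and the pair was therefore not among the 15. Notch1 and Satb1 shared 54 WT cells where 44.7 were expected, and that interval spanned 1. In cKO they shared 12 cells where 5.44 were expected (2.20, 1.14 to 3.85).

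A group of 7 restricted members (Dntt, Rag1, Rag2, Il7r, Il12a, Ly6d and Tmem108) left out Ikzf1, Satb1 and Notch1, which many blood cells use. The choice was made by what the genes are known for, but with earlier results of these data known. In these data Il12a was found in more WT cells than Notch1 or Ikzf1. Of the 7, 24.0% of WT (23.1 to 25.0) and 9.61% of cKO cells (8.99 to 10.3) had at least 1. At least 2 were found in 6.12% (5.60 to 6.67) and 2.66% (2.33 to 3.03). At least 3 were found in 71 WT cells (0.894%, 0.699 to 1.13) and 83 cKO cells (0.991%, 0.790 to 1.23), so that at this number of members the intervals of the libraries overlapped. Independent detection would give 5.56 WT and 1.21 cKO cells with 3 or more, 12.8 and 68.4 times fewer than observed. The highest number in a cell was 5 of 7, in 1 WT and 2 cKO cells. The count of cells with 2 or more turned on Il12a. Without this gene (a choice made after seeing the data), at least 1 of the other 6 was found in 16.9% of WT (16.1 to 17.8) and 5.41% of cKO cells (4.93 to 5.92). At least 2 were then found in 1.74% (1.46 to 2.05) and 2.08% (1.78 to 2.41), with overlapping intervals and cKO no longer the lower library. At least 3 were found in 21 WT cells (0.264%, 0.164 to 0.404) and 50 cKO cells (0.597%, 0.443 to 0.786).

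**Figure D3:**
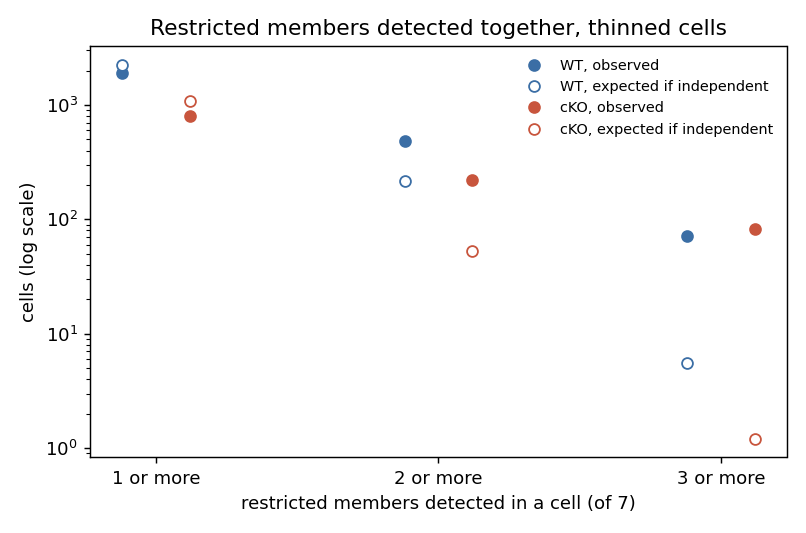
Number of thinned cells (log axis) with at least 1, 2 or 3 of the 7 restricted members in WT (blue) and cKO (red), with open circles for the number expected from the single shares if detection were independent. WT exceeds cKO at 1 or more (1907 and 805 cells) and at 2 or more (486 and 223), and the libraries are close at 3 or more (71 and 83). Without Il12a the cells with 2 or more number 138 and 174.

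The Dntt cells themselves differed in what else they held. Ly6d was found in 2.96% (37 of 1250, 2.09 to 4.06) of WT and 29.8% (97 of 325, 24.9 to 35.1) of cKO Dntt cells, and Tmem108 in 5.04% (3.89 to 6.40) and 20.9% (16.6 to 25.8). Rag1 was found in 0.0800% (1 cell) and 4.62% (15 cells), and Rag2 in 0.880% and 4% (13 cells). Satb1 went the other way, with 29.2% (26.7 to 31.8) of WT and 15.7% (11.9 to 20.1) of cKO Dntt cells. Notch1 was found in 10.6% (8.98 to 12.5) and 5.85% (3.56 to 8.98), with intervals that were just separate. Il7r was found in 3.44% (2.50 to 4.61) and 6.15% (3.80 to 9.34), with overlapping intervals and the higher value in cKO. For Il12a (31.3% and 25.2%) and Ikzf1 (14.8% and 12.6%) the intervals overlapped, as they did for Flt3, the receptor that marks LMPPs (34.9% and 33.5%). Within the Dntt cells, the surface and recombinase members were thus more frequent in cKO, and Satb1 and, by a narrow margin, Notch1 less frequent. In cells without Dntt, Satb1 was found in 10.3% of WT and 2.20% of cKO cells, so its reduction was not limited to the Dntt cells.

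**Figure D4:**
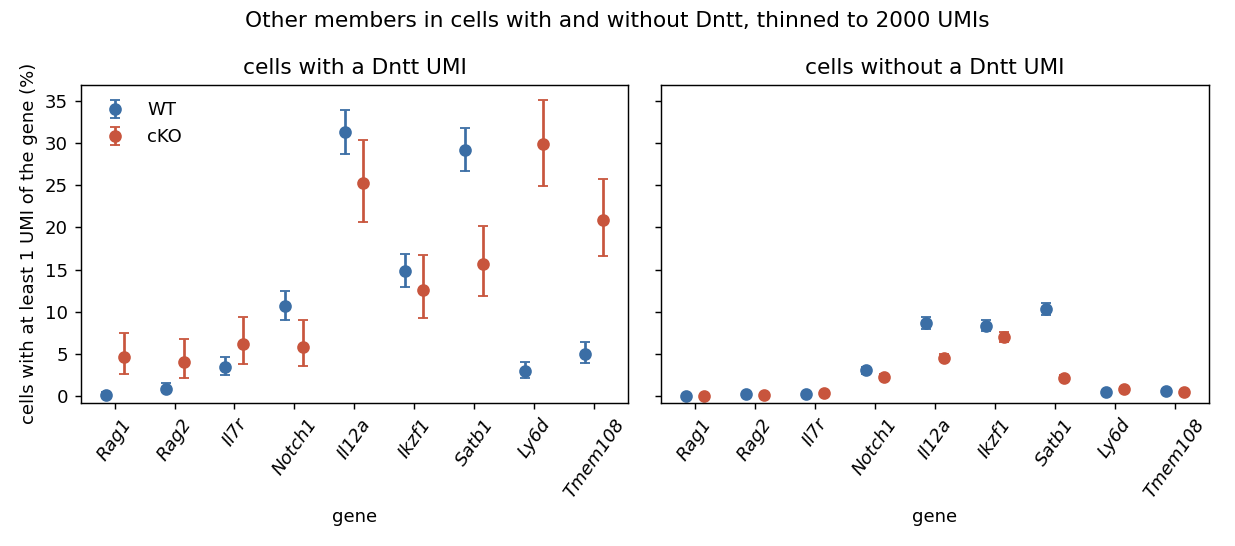
Share of thinned cells with at least 1 UMI of each other member among cells with a Dntt UMI (left, 1250 WT and 325 cKO cells) and without one (right), with exact 95% binomial intervals. On the left Ly6d (2.96% and 29.8%) and Tmem108 (5.04% and 20.9%) are higher in cKO (red), and Satb1 (29.2% and 15.7%) is higher in WT (blue).

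Part of this difference sat in cells with B lineage genes. Cells with at least 3 of 10 B lineage genes (among them Cd79a, Vpreb1, Igll1, Ebf1 and Pax5) numbered 12 in WT (0.151%) and 92 in cKO (1.10%), although the labels' protocol has a lineage depletion step before the sort (the study's methods name an enrichment with CD117 beads). In cKO these 92 cells held 73.1% of the Rag1 UMIs, 43.3% of the Ly6d UMIs, 21.4% of the Il7r UMIs and 14.8% of the Dntt UMIs. Of the 325 cKO Dntt cells 47 were in this range, compared with 7 of 1250 in WT. Without them, Ly6d was still found in 2.65% (1.83 to 3.71) of WT and 23.0% (18.2 to 28.4) of cKO Dntt cells, Tmem108 in 4.91% and 19.4%, and Satb1 in 29.2% and 16.2%. Leaving them out was chosen after seeing the data. The Notch1 intervals then overlapped, at 10.7% (9.04 to 12.6) and 6.12% (3.60 to 9.61). Ebf1, the transcription factor that sets up the B lineage, remained in 0.161% and 15.5% of these Dntt cells. Rag1 in cKO Dntt cells went from 15 to 6 cells (4.62% to 2.16%) and Il7r from 6.15% to 3.96% (3.30% in WT). Leaving out every Dntt cell with at least 2 B lineage genes (15 in WT and 66 in cKO) gave Ly6d in 2.67% (1.85 to 3.73) and 19.7% (15 to 25.1), Tmem108 in 4.94% and 18.9%, and Rag1 in 1 and 2 cells. Leaving out those with at least 1 (225 and 128) gave Ly6d in 2.24% (1.43 to 3.35) and 16.8% (11.8 to 22.7), Tmem108 in 4.59% and 17.3%, and Il7r in 3.61% and 3.55%. The Ly6d and Tmem108 shares thus remained apart at each threshold, with the Ly6d gap narrowing, whereas the Rag1 and Rag2 intervals, separate over all Dntt cells, overlapped once cells with 2 or more B lineage genes were left out. A threshold on a score is a range and not a cell type.

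Il7r had a further source in cKO. Cells with at least 3 of 13 T, NK and innate lymphoid genes numbered 19 in WT and 31 in cKO. The 31 cKO cells held 12 of the 56 thinned Il7r UMIs (21.4%) and 0 Dntt UMIs, whereas 8 of the 19 WT cells had Dntt and 1 had Il7r. Cells with an Il7r UMI also had Dntt in 43 of 56 cases in WT (76.8%, 63.6 to 87.0) and in 20 of 45 in cKO (44.4%, 29.6 to 60.0). Ly6d had a further source too. Cells with at least 3 plasmacytoid dendritic genes (from a list with Siglech and Cox6a2) numbered 10 in WT and 6 in cKO and held 22.4% and 15.8% of the Ly6d UMIs.

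Outside all of the listed ranges (stem, azurophil granule, platelet, mast cell, B lineage, T and NK, and plasmacytoid dendritic genes), 7019 WT and 7955 cKO thinned cells remained. Ratios there are set beside those over all thinned cells, which differ from the ratios of the full counts. Dntt (-1.89 over all thinned cells), Satb1 (-2.38), Il12a (-1.30), Notch1 (-0.91) and Ikzf1 (-0.38) were lower in cKO in both sets, while Ly6d (1.46) and Il7r (-0.35, -0.89 to 0.18) moved. Outside the ranges the log2 ratios were -2.22 (-2.33 to -2.10) for Dntt, -2.58 (-2.80 to -2.37) for Satb1, -1.39 (-1.54 to -1.23) for Il12a, -1.21 (-1.89 to -0.59) for Il7r, -0.99 (-1.26 to -0.73) for Notch1 and -0.44 (-0.60 to -0.28) for Ikzf1. Ly6d was at 0.72 (0.44 to 1.01) outside the ranges, and at 0.30 (-0.04 to 0.65) when the ranges were widened to at least 2 genes (10 UMIs for azurophil granule genes). Tmem108 went from -0.36 (-0.75 to 0.03) to -0.74 (-1.18 to -0.30) on widening. The widened B lineage range, itself set by lymphoid genes, held 29 WT and 130 cKO cells. Rag1 had 2 and 7 UMIs outside the ranges before widening, and its interval spanned 0. Among cells with at least 3 mitotic genes (1607 in WT and 1331 in cKO, not counted among the ranges above), Ly6d was not higher in cKO, at -0.39 (-0.85 to 0.06), and these cells held 43.3% of the thinned WT Ly6d UMIs. Dntt was at -2.34 (-2.64 to -2.06) and Satb1 at -2.27 (-2.83 to -1.78) in them. In the 135 WT and 234 cKO cells with at least 3 stem genes, Dntt had 7 and 2 UMIs and Satb1 had 9 and 2 UMIs.

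Flt3 was also stained at the sort, per the labels. Cells with a Flt3 UMI numbered 1355 in WT (17.1% of thinned cells) and 541 in cKO (6.46%), and within them the Dntt gap narrowed. Dntt had 431 CPM in WT against 312 CPM in cKO Flt3 cells, with a log2 ratio of -0.46 (-0.64 to -0.29). Satb1 remained lower, at 131 and 46.2 CPM (-1.49, -1.96 to -1.07), and Il12a was at 132 and 86.0 CPM (-0.61, -0.97 to -0.29). The intervals spanned 0 for Notch1 (-0.61, -1.33 to 0.01), Ikzf1 (0.06, -0.39 to 0.48) and Il7r (-0.05, -1.61 to 1.20). Ly6d was at 31.0 and 212 CPM (2.77, 2.40 to 3.15), and Tmem108 was at 19.9 and 48.1 CPM (1.27, 0.69 to 1.85). These Flt3 cells included cells of the B lineage range (1 in WT and 19 in cKO) and of the plasmacytoid dendritic range (1 and 2). Their part in these values was not tested. In the summed counts, fewer positive cells and less RNA per cell cannot be told apart. Azurophil granule genes moved with these results, as all 7 of 7 listed genes were at a log2 ratio of -1 or lower (6545 CPM summed in WT, 738 CPM in cKO), and their part in them was not tested. Other marker lists moved too. Of 11 platelet genes, 8 were lower and 0 higher (207 and 64.5 CPM summed, 1 gene at 0 in each library), and of 9 mast cell and basophil genes 4 were lower and 3 higher (210 and 81.6 CPM). Of 9 stem genes, 0 were lower and 4 higher (186 and 258 CPM), and of 10 B lineage genes 0 were lower and 7 higher (78.5 and 102 CPM). Of 10 plasmacytoid dendritic genes, 5 were lower and 2 higher (94.6 and 398 CPM), and of 13 T, NK and innate lymphoid genes 1 was lower and 5 higher (622 and 337 CPM). The rise in the plasmacytoid sum came from Cox6a2, a gene of that list, which alone had 41.4 CPM in WT and 372 CPM in cKO. The part of these lists in the results was not tested either. Without the cells rich in azurophil granule genes, Dntt was found in 13.0 percentage points fewer cKO than WT cells, compared with 11.9 points over all thinned cells.

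The genes most like Dntt changed between the libraries. Likeness was the log2 fold of CPM in cells with a Dntt UMI over cells without (10 CPM added to both), over 1250 and 6695 cells in WT and 325 and 8050 in cKO. In WT the 8 highest were Cox6a2 (3.04), Ly6d (2.24), Wfdc17 (2.01), Il12a (2.0), Cnn3 (1.94), Wfdc18 (1.82), Tmem108 (1.67) and Arpp21 (1.63). In cKO they were Ebf1 (4.47), Ly6d (4.22), Igll1 (4.08), Cd79a (3.85), Vpreb1 (3.76), Vpreb3 (3.76), Tmem108 (3.60) and Blnk (3.20). Ly6d and Tmem108 were the 2 in both lists. In cKO the list was otherwise made of B lineage genes, namely Ebf1, the surrogate light chain genes Igll1, Vpreb1 and Vpreb3, the receptor signalling chain Cd79a and the adaptor Blnk. Cox6a2, a cytochrome c oxidase subunit gene that was also on the plasmacytoid dendritic list, was in the WT list only. It was found in 20.9% of WT and 64.3% of cKO Dntt cells, and in 1.99% and 22.8% of cells without Dntt. Over all kept cells Cox6a2 had 41.4 CPM in WT against 372 CPM in cKO. For Il7r, over 56 WT and 45 cKO positive cells, the 8 highest were Vpreb1, Igll1, Cox6a2, Dntt, Tmem108, Cnn3, Mn1 and Vpreb3 in WT and Igll1, Vpreb1, Vpreb3, Ebf1, Id2, Cd7, Cd79a and Ly6d in cKO, with 3 shared.

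Related genes were described as lists, each with its median log2 ratio and its count past 1 in each direction, beside -0.07, 5.24% lower and 2.91% higher over all 9140 genes. Of 11 genes of interleukin 7 and Flt3 signalling, 3 were at -1 or lower and 0 at 1 or higher (median -0.40). These were Flt3 (-1.44), the cytokine gene Tslp (-1.59) and the survival gene Bcl2 (-1.25). Of 17 lymphoid transcription factor genes, 3 were lower, Sox4 (-1.21), Runx1 (-1.50) and Myb (just past the limit), and 1 was higher, Ebf1 (2.05), with a median of -0.60. Of 14 other lymphoid surface and signalling genes (median -0.28), 3 were lower, among them Cd52 (-1.85) and Cd27 (-1.06), and 3 were higher, Cd79a (2.52), Vpreb3 (2.10) and Igll1 (1.26). Restricted to its 9 genes at 20 CPM or more, this list had a median of -0.67, with 3 lower and 0 higher. Cd79a, Vpreb3 and Igll1 encode components or partners of the pre-B cell receptor, and Cd52 and Cd27 encode surface proteins used by lymphocytes more broadly. Of 9 Notch pathway genes, 0 were lower and 1 was higher, Lfng (1.13), with a median of -0.21, so that Notch1 itself lay below each of these 9 genes. Of 9 end joining genes, 0 were lower and 1 was higher, Xrcc5 (1.24), with a median of -0.17.

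**Figure D5:**
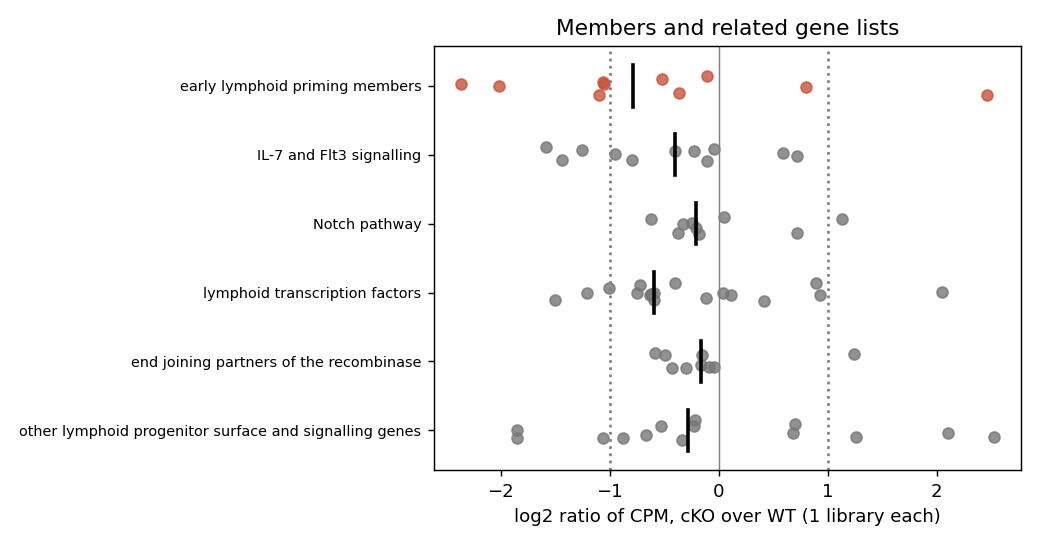
log2 ratio of CPM (cKO over WT, 1 library each) for the 10 members (red) and for the genes of 5 related lists that reached 5 CPM (grey), with black bars at each median and dotted lines at -1 and 1. Members run from -2.37 (Satb1) to 2.46 (Rag1), and the Notch and end joining lists lie closest to 0 with medians of -0.21 and -0.17.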

How the data were processed

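Droplet RNA data were used, with 1 library of sorted LSK cells for each labelled genotype. The authors deposited filtered matrices of UMI counts per gene and barcode, made with Cell Ranger 6.0.0 on mm10 per the labels. The labels name version 2 and the study's methods version 3 of the 3′ kit, which could change the counts per cell. Because tags come from transcript ends, no length scaling was applied. Reads were not analysed here.

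Cells were filtered as in the study, library by library (more than 200 genes, under 4000 genes and 10% mitochondrial UMIs in WT, under 4500 genes and 5% in cKO, and under 5% hemoglobin UMIs). Likely doublets were scored against simulated doublets (50 neighbours, 20 components, 1500 variable genes) and the top 0.8% per 1000 barcodes was marked. This marked 7.09% of WT and 7.41% of cKO barcodes, and 615 and 671 cells within the limits were removed.

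Levels are CPM of UMIs summed over kept cells with exact Poisson intervals. log2 ratios are cKO over WT with 0.5 counts added and conditional binomial intervals, and shares have Clopper-Pearson intervals (scipy 1.17.1, numpy 2.4.6, Python 3.11). A limit for 0 cells is 3 counts. Depth ranged from a median of 4146 (WT) to 10066 (cKO) UMIs per cell, so shares, co-detection and gene ranges used cells thinned to 2000 UMIs. Ranges needed 3 listed genes, except azurophil granule genes, which needed 20 UMIs of 2000. The symbols Mpig6b and Trbc1 were not found. All 10 members were named, together with the reported pathway genes past 1 on the log2 scale and the 8 genes most like Dntt and Il7r (at least 20 CPM in positive cells). The ratios, thinning and co-detection were tested on simulated data. The members, lists and tests were chosen with earlier results of these data known. Motifs, the alternatives without gated cells or cells with B lineage genes among Dntt cells, the background of gene pairs and the count without Il12a were chosen after seeing the data. Other alternatives changed scaling, doublet removal, limits, thinning depth or seed, minimum level and the ranges. Gene positions were those of GENCODE M21 on GRCm38, and promoter windows those of RefSeq on GRCm38.p6. Some genes of the lists are not reported here.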

Additional observations from a re-analysis of the deposited data

How the results depend on the processing

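Of the 10 members, 5 were at a log2 ratio of -1 or lower, and this count was 3 with the TMM factor, 2 with size factors from the median of ratios and 3 when mitochondrial and ribosomal protein genes were left out of the total, since Notch1, Il12a and Il7r lay close to the threshold. The count at 1 or higher was 1 and became 2 with each cell scaled to its own total, where Ly6d reached 1.47 and the Il7r ratio turned to 0.52. Without the cells with B lineage or T, NK and innate lymphoid genes, Ly6d was at 0.29, Il7r at -1.89 and Rag1 at 1.70. The difference in cells with Dntt (-11.9 percentage points) was -7.96 at 1000 UMIs, -14.9 at 4000 UMIs, -13.9 without thinning and -13.0 without the azurophil granule cells. Only 4279 WT but 8159 cKO cells reached 4000 UMIs, so the depth and the set of cells changed together. The difference in cells with 2 or more restricted members (-3.45 points) was -1.66, -6.02 and -5.08 at 1000 UMIs, at 4000 UMIs and without thinning. It turned to 0.34 points without Il12a among the restricted members, an alternative added after seeing the data. The Ikzf1 share difference turned to 9.66 points without thinning. The cause of these changes was not tested. Over the alternatives of scaling, filtering and leaving out cells with azurophil granule or lymphoid genes, the ratio over all kept cells was between -2.27 and -1.88 for Dntt and between -2.54 and -2.26 for Satb1. In thinned cells outside the widened ranges it was -2.52 and -2.72, and in Flt3 cells -0.46 and -1.49.

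No paired analysis was possible because each genotype had 1 library. No replicate was left out for the same reason. Rag1, Rag2 and Il7r rest on 7 to 189 UMIs per library, so their shares resolve only large differences.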
